A study of Mus musculus with 6 samples.

Results

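The transcripts of 9 snoRNA host genes, Gas5, Snhg1, Snhg3, Snhg5, Snhg6, Snhg8, Snhg12, Snhg15 and Zfas1, were followed in bone marrow-derived macrophages (BMDMs) 1 h after lipopolysaccharide (LPS). They were chosen by name as long non-coding RNA genes that carry small nucleolar RNAs (snoRNAs), not by a cut on their values. Earlier results of these data were known when they were chosen. They are 9 of the 55335 genes in the count table. All 9 passed the filter on low counts that left 15687 genes for testing. The cells came from C57BL/6 mice 7 to 10 weeks old and were grown from marrow for 6 days with L929-conditioned medium, a source of the macrophage growth factor CSF1. PBS was given to 3 cultures and LPS to 3, each for 1 h, and the library names give all 6 as wild type (WT), with no other agent. The LPS dose of these cultures is not in the labels. Nothing says that the 3 libraries of a group came from separate animals, so p-values measure the spread between these libraries, which may be technical.

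A host gene carries snoRNAs in its introns, and the snoRNAs are trimmed out of the excised introns after splicing. Box C/D snoRNAs guide 2′-O-methylation and box H/ACA snoRNAs guide pseudouridylation of ribosomal RNA, while a few, such as those of the U17 family in Snhg3, act in cleavage of the ribosomal RNA precursor. The spliced host transcript often starts with a pyrimidine tract, as do the mRNAs of ribosomal proteins, and is commonly degraded by nonsense-mediated decay (NMD) in the cytoplasm, so its level reflects both synthesis and decay. LPS is the bacterial ligand of TLR4 and sets off the inflammatory programme of macrophages.

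The start regions of 5 hosts are shown because these hosts span the range of change, from Snhg12, which fell most, to Snhg15, which rose most. Each window runs 5′ to 3′ over 100 bases, from 60 before the RefSeq start to 40 from the start on, in GRCm38.p6, and for Gas5 the downstream one of its 2 RefSeq starts is given. Capitals mark a pyrimidine tract near the start, TATA in the 60 bases before it, and CACGTG.
Gas5, chr1:161035106-161035205, + strand: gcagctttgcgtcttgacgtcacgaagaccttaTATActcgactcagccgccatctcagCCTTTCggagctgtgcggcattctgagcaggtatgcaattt
Snhg12, chr4:132308618-132308717, + strand: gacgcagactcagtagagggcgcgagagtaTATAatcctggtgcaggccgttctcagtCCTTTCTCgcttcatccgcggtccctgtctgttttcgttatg
Snhg5, chr9:88522858-88522957, - strand: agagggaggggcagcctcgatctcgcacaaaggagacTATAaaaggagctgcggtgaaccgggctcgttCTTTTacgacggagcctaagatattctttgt
Snhg8, chr3:123508297-123508396, - strand: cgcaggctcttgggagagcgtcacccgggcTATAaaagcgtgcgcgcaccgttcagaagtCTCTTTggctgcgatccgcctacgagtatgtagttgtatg
Snhg15, chr11:6528721-6528820, - strand: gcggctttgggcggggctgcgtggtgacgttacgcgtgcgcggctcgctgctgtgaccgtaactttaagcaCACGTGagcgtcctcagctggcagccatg
A tract was taken as a C followed by at least 4 pyrimidines, beginning within 20 bases of the start, on the sense strand as shown. It was found in 5 of the 8 members with a RefSeq promoter, namely Gas5, Snhg3, Snhg5, Snhg8 and Snhg12, against 49.4% of all 32851 promoters. TATA stood in the 60 bases before the start of 5 of the 8 (Gas5, Snhg1, Snhg5, Snhg8 and Snhg12), against 10.5% of all promoters. CACGTG, searched on both strands of the 300-base promoter, was found in Snhg15 alone among the 8 and in 7.15% of all promoters. TGACG, on either strand of the same 300 bases, was in Gas5, Snhg8, Snhg12 and Snhg15 and in 20.8% of all promoters. The κB-type motif of GGG and TTTCC with 2 bases between them, searched on both strands, was in Snhg8 alone among the 8 and in 1.63% of all promoters. The upstream Gas5 start had neither tract nor TATA, so each was in 5 of the 9 windows, and the shares of all promoters are counted per window. These are matches of letters only, and they were chosen after the levels had been seen. Snhg6 was not searched.

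The hosts differ in size and in the number of snoRNA genes inside them, as annotated in GENCODE M21 on GRCm38. These numbers count annotated entries, with overlapping entries named Snord80 in Gas5 and Snora16a in Snhg12. Gas5 (ENSMUSG00000053332, chr1:161034422-161038539, + strand) holds 10 snoRNA genes, and Snhg1 (ENSMUSG00000108414, chr19:8723475-8726443, + strand) holds 8. Snhg12 (ENSMUSG00000086290, chr4:132308623-132311024, + strand) holds 5, Zfas1 (ENSMUSG00000074578, chr2:167062934-167065862, + strand) holds 3, and Snhg3 (ENSMUSG00000085241, chr4:132348014-132353686, - strand) and Snhg5 (ENSMUSG00000097195, chr9:88521050-88522929, - strand) hold 2 each. Snhg6 (ENSMUSG00000098234, chr1:9941959-9944118, - strand), Snhg8 (ENSMUSG00000104960, chr3:123507552-123508404, - strand) and Snhg15 (ENSMUSG00000085156, chr11:6525591-6528760, - strand) hold 1 each.

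Libraries held 37787611 to 41516330 counts. Levels are given as CPM, a gene's count relative to its library's total, here scaled by TMM factors that correct the total for differences in RNA composition. These factors averaged 1.15 in the PBS and 0.869 in the LPS libraries. Scaling by library size alone lowered the median log2 fold change over all tested genes by a shift of -0.40, so each direction below is relative to TMM scaling, which put that median at -0.01. All 7 macrophage markers passed the filter and none of them was past both criteria of change used below, with a summed level of 29500 to 30800 CPM in PBS and 32300 to 32600 CPM in LPS. Summed markers of T cells reached at most 0.376 CPM. B cell markers summed to 0.598 to 0.910 CPM in PBS and 1.01 to 1.25 CPM in LPS, and mast cell markers to 0.357 to 0.398 CPM in PBS and up to 1.01 CPM in LPS, each LPS library being higher, with Mcpt4 at 0. Neutrophil markers summed to 33.2 to 35.1 CPM in PBS and 43.4 to 45.3 CPM in LPS with Ly6g at or under 3 counts in every library, and stromal markers to 9.87 to 10.8 and 11.4 to 12.2 CPM. The 3 dendritic cell markers Flt3, Zbtb46 and Xcr1 all rose past both criteria, from a sum of 1.20 to 1.45 CPM to one of 4.93 to 6.17 CPM. Mitochondrially encoded genes took 0.970 to 1.07% of counts in PBS and 1.21 to 1.34% in LPS, without overlap. The part of these other cell types and of the mitochondrial share in the results was not tested.

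The first question was whether the host transcripts moved together after 1 h of LPS. They did not. In edgeR's quasi-likelihood test, with p-values adjusted over all 15687 tested genes, 5 hosts fell (Snhg12, Snhg5, Snhg3, Zfas1 and Gas5) and 2 rose (Snhg15 and Snhg8) at an adjusted p under 0.05, against 34.9% of all tested genes that fell and 32.9% that rose. Snhg1 and Snhg6 did not pass. With an absolute log2 fold change above 1 required as well, together called both criteria here, Snhg15 alone rose and none fell, against 10.5% and 10.4% of all tested genes. Since most tested genes passed in one direction or the other, a pass by 7 of 9 is near that background. The median log2 fold change of the 9 was -0.30, against -0.01 over all tested genes. For comparison, 590 other long intergenic or processed non-coding transcripts were tested, of which 18.8% rose and 28.5% fell past both criteria, with a median of -0.39.

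**Figure D1:**
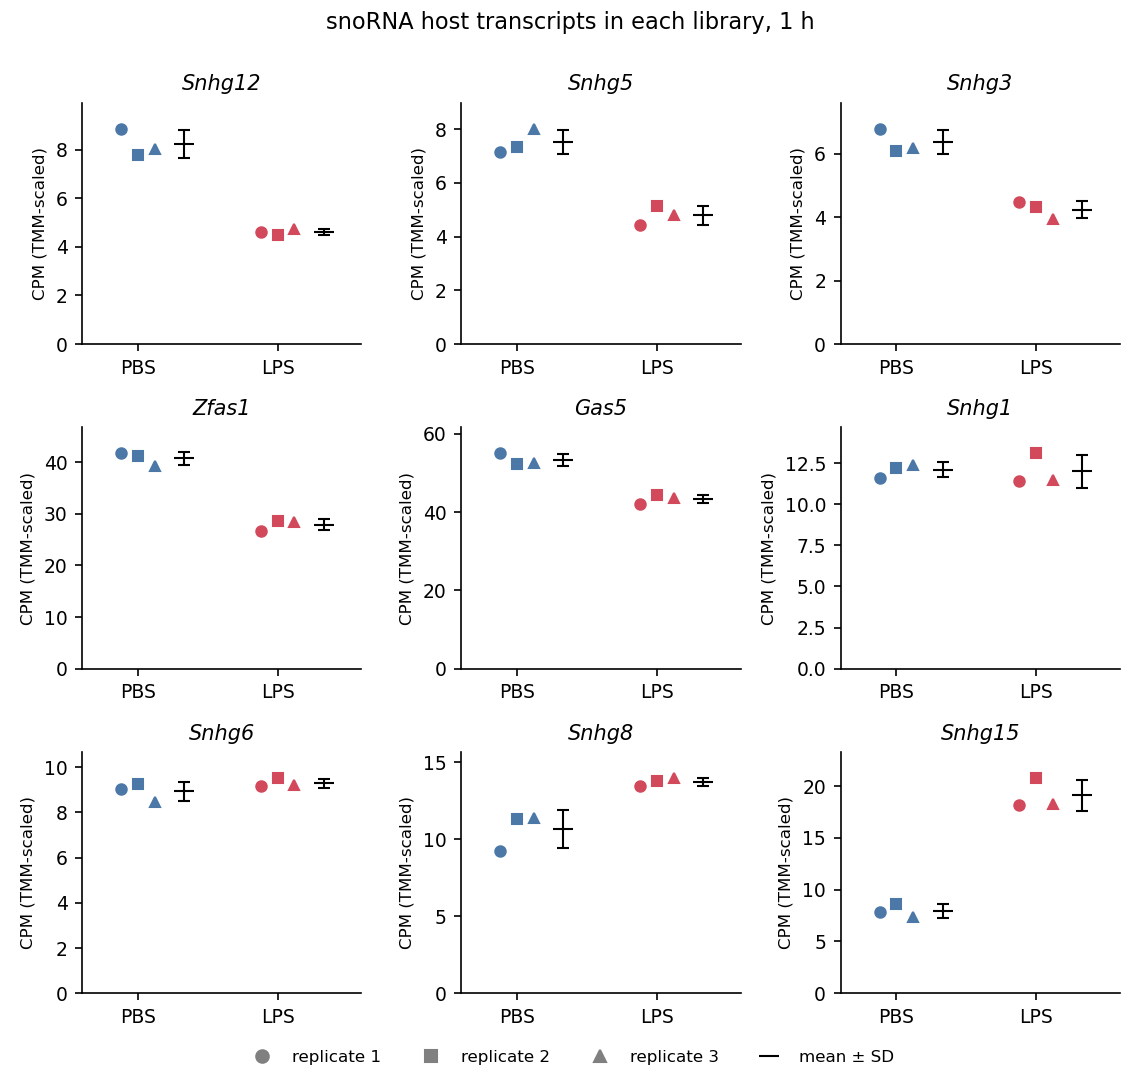
Level of each host transcript in CPM (TMM-scaled, linear axes from 0) in the 3 PBS (blue) and 3 LPS (red) libraries, with symbols for replicates 1 to 3 and black marks for the mean ± SD. The LPS libraries of Snhg15 sit between 18.2 and 20.8 CPM, above all PBS libraries, those of Snhg12 sit between 4.50 and 4.73 CPM, below all PBS libraries, and the groups overlap for Snhg1 and Snhg6.

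Snhg15, host of a single H/ACA snoRNA gene, moved furthest. It had 374, 391 and 338 counts in PBS replicates 1, 2 and 3 and 610, 679 and 622 in the LPS libraries. All 3 LPS libraries lay above all PBS libraries, also in unscaled counts, which held for no other host. The level went from 7.94 ± 0.669 to 19.1 ± 1.49 CPM (mean ± SD, n = 3 each), which is 240% of the PBS level. The log2 fold change was 1.26 (SE 0.078, 95% interval 1.10 to 1.43, adjusted p = 8.85e-11 in edgeR), and the same-numbered pairs gave log2 ratios of 1.21 to 1.32. Scaled by library size alone it was 0.86 with an adjusted p of 1.93e-08 in edgeR, still a rise but short of a log2 fold change of 1.

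Snhg8, also the host of 1 H/ACA snoRNA gene, rose by less. Its counts were 440, 511 and 528 in PBS and 452, 450 and 476 in LPS, and these raw counts overlapped. On the TMM scale the groups separated, at 9.24, 11.3 and 11.4 CPM in PBS against a mean of 13.7 ± 0.261 CPM in LPS (n = 3). PBS replicate 1 was the lowest of the PBS libraries. The log2 fold change was 0.37 (SE 0.081, 95% interval 0.20 to 0.54, adjusted p = 6.06e-04 in edgeR), and it was -0.04 when scaled by library size alone (adjusted p = 0.68 in edgeR).

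Snhg12, whose snoRNAs are mainly of the H/ACA class, fell most among the 9. It had 422, 352 and 370 counts in PBS and 154, 147 and 161 in LPS, and the groups did not overlap. The level went from 8.22 ± 0.564 to 4.61 ± 0.115 CPM (n = 3 each), 56.0% of PBS, with a log2 fold change of -0.84 (SE 0.091, 95% interval -1.03 to -0.64, adjusted p = 2.40e-07 in edgeR). Scaled by library size alone it was -1.24, past both criteria.

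Snhg5, host of the U50 C/D snoRNAs, had 341, 332 and 370 counts in PBS and 149, 168 and 164 in LPS. Every LPS library was below every PBS library. The level went from 7.51 ± 0.451 to 4.80 ± 0.354 CPM, 63.9% of PBS, and the log2 fold change was -0.65 (SE 0.094, 95% interval -0.84 to -0.45, adjusted p = 8.57e-06 in edgeR). It was -1.05 when scaled by library size alone, past both criteria.

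Snhg3, host of the paired U17 genes Snora73a and Snora73b, had 324, 276 and 286 counts in PBS and 150, 141 and 134 in LPS. The groups did not overlap. The level went from 6.37 ± 0.378 to 4.24 ± 0.275 CPM, 66.6% of PBS, with a log2 fold change of -0.59 (SE 0.097, 95% interval -0.79 to -0.38, adjusted p = 3.67e-05 in edgeR). Its counts are uncertain because other genes share its exons. Of its 986 exonic bases, 135 are shared on the same strand with Rcc1, the guanine nucleotide exchange factor of Ran, and 705 lie opposite exons of Gm17300. Rcc1 itself fell (log2 fold change -0.28, SE 0.082, adjusted p = 5.65e-03 in edgeR), and Gm17300 held 3 to 11 counts per library.

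The hosts with the most counts were Gas5 and Zfas1, and both fell. Gas5, a C/D host named for its accumulation in growth-arrested cells, had 2618, 2358 and 2421 counts in PBS and 1414, 1445 and 1479 in LPS. Its LPS libraries all lay below its PBS libraries, at 81.3% of the PBS level (53.2 ± 1.54 to 43.3 ± 1.08 CPM). The log2 fold change of -0.30 (SE 0.041, 95% interval -0.38 to -0.21, adjusted p = 4.43e-06 in edgeR) was the smallest among the hosts that fell.

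Zfas1, host of Snord12 and 2 similar C/D genes, had 1985, 1857 and 1815 counts in PBS and 897, 931 and 964 in LPS. The groups did not overlap, and the level went from 40.7 ± 1.22 to 27.9 ± 0.984 CPM, 68.4% of PBS. The log2 fold change was -0.55 (SE 0.046, 95% interval -0.65 to -0.45, adjusted p = 7.48e-09 in edgeR).

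Snhg1 and Snhg6 did not pass the test. Snhg1, host of the C/D genes around Snord22, had 550, 553 and 572 counts in PBS and 382, 429 and 390 in LPS. Its levels overlapped, with LPS at 99.4% of the PBS level of 12.1 ± 0.450 CPM, with a log2 fold change of -0.01 (95% interval -0.16 to 0.15, adjusted p = 0.925 in edgeR). Snhg6, host of Snord87, had 431, 419 and 390 counts in PBS and 307, 311 and 314 in LPS. It overlapped as well, at 8.93 ± 0.425 and 9.30 ± 0.201 CPM, with a log2 fold change of 0.06 (95% interval -0.10 to 0.22, adjusted p = 0.506 in edgeR). Under scaling by library size alone both fell, with log2 fold changes of -0.41 and -0.34 (adjusted p = 5.5e-05 and 4.36e-04 in edgeR).

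**Figure D2:**
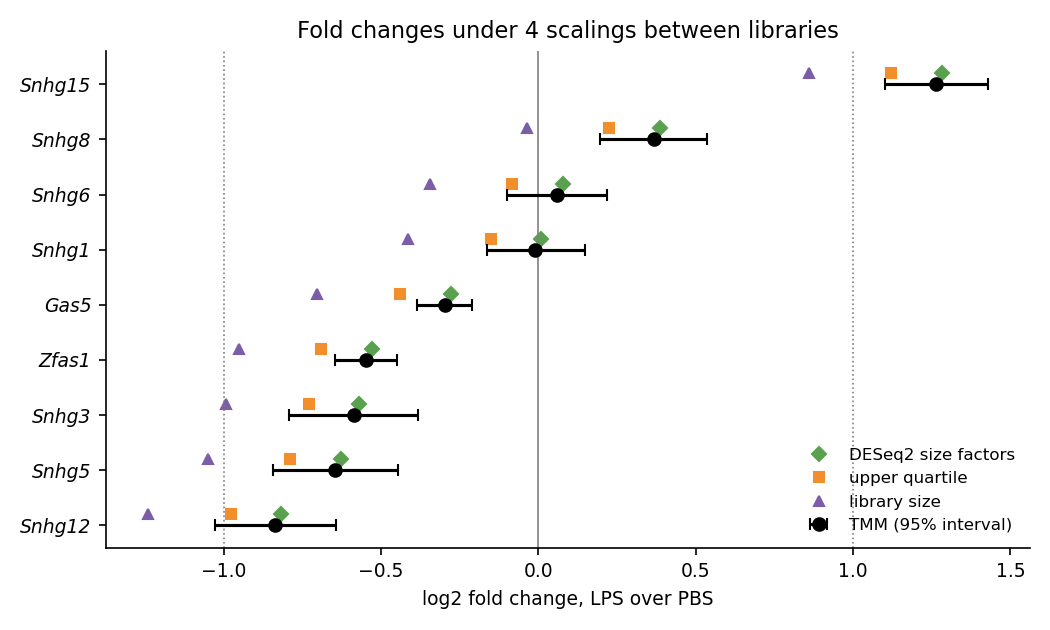
Log2 fold change of each host, LPS over PBS, on the x axis under TMM scaling (black, with 95% interval), DESeq2 size factors (green), upper quartile (orange) and library size alone (purple), with dotted lines at a log2 fold change of -1 and 1. A change of scaling moves all hosts by nearly the same amount, so their order necessarily stays the same. Library size alone moves Snhg8 from 0.37 to -0.04 and Snhg15 from 1.26 to 0.86.

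In 7 of the 9 hosts the TMM-scaled levels of the groups did not overlap. Every LPS library was above every PBS library for 2 of them, against 33.9% of all tested genes, and below for 5, against 36.6%. The 9 together summed to 157, 156 and 154 CPM in PBS and to 135, 144 and 138 CPM in LPS, so the LPS libraries were lower in sum. Gas5 took 33.5 to 35.0% of that sum in PBS and 30.7 to 31.4% in LPS. In bulk RNA, fewer cells that express a gene and less of its RNA per cell cannot be told apart.

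A ratio between 2 hosts within a library does not depend on how libraries are scaled, and this comparison was added after the values had been seen. For each Gas5 count there were 0.143, 0.166 and 0.140 counts of Snhg15 in PBS and 0.431, 0.470 and 0.421 in LPS, a log2 difference of 1.56. The ratio of Snhg8 to Gas5 went from 0.201 ± 0.0285 to 0.318 ± 0.00550 (n = 3 each), a log2 difference of 0.67. The ratios of Snhg6 and Snhg1 to Gas5 were also higher in every LPS library, with log2 differences of 0.36 and 0.29. The other 4 were lower in every LPS library. The ratio of Snhg12 to Gas5 went from 0.154 ± 0.00612 to 0.106 ± 0.00413 (log2 difference -0.54), and those of Snhg5, Snhg3 and Zfas1 differed by -0.35, -0.29 and -0.25. None of the 8 ratios overlapped between groups. How many of all tested genes would separate as a ratio to Gas5 was not computed, while on the TMM scale 33.9% separated upwards and 36.6% downwards. Each of the 8 ratios had an exact two-sided permutation p of 0.1. That is the smallest that 3 libraries against 3 allow, and it stays at 0.1 after Benjamini-Hochberg adjustment over the 8. Gas5 itself has the median log2 fold change of the 9 hosts (-0.30), so a split into 4 higher and 4 lower follows from taking it as the denominator. All 8 ratios share the Gas5 counts. Snhg1 and Snhg6 stood higher relative to Gas5, which itself fell, while neither passed the test on its own.

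**Figure D3:**
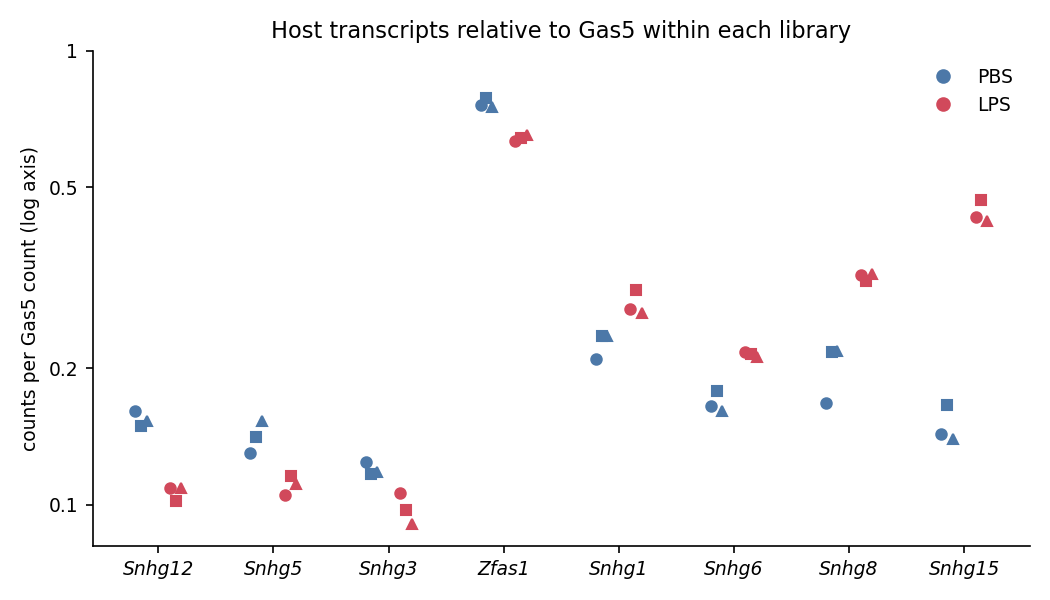
Counts of each of the other 8 hosts per Gas5 count in the same library (log axis), in PBS (blue) and LPS (red), with circles, squares and triangles for replicates 1, 2 and 3. Snhg12, Snhg5, Snhg3 and Zfas1 lie lower in all LPS libraries, and Snhg1, Snhg6, Snhg8 and Snhg15 lie higher, with Snhg15 going from 0.140 to 0.166 up to 0.421 to 0.470.

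Levels can be compared between hosts only per length, here as CPM per 1000 exonic bases of the union of annotated exons. These unions differ in kind. In Snhg1, Snhg8, Snhg12 and Zfas1 the union covers the whole gene span, introns included, and in Gas5 3760 of 4118 bases. It covers 986 of 5673 bases in Snhg3, 1359 of 3170 in Snhg15 and 1146 of 2160 in Snhg6. In PBS the order began with Gas5 at 14.2 ± 0.409 and Zfas1 at 13.9 ± 0.418 (n = 3 each), whose libraries overlapped. Snhg8 at 12.5 ± 1.45, Snhg6 at 7.79 ± 0.371 and Snhg3 at 6.46 ± 0.384 followed, each without overlap with the host before it. Snhg8 and Zfas1 were barely apart, as the highest Snhg8 library and the lowest Zfas1 library both round to 13.4. Snhg15 at 5.85 ± 0.492 overlapped Snhg3, Snhg5 at 4.34 ± 0.261 overlapped Snhg1 at 4.06 ± 0.152, and Snhg12 was lowest at 3.42 ± 0.235. In LPS the order began with Snhg8 at 16.1 ± 0.306 and Snhg15 at 13.4 to 15.3, both above Gas5 at 11.5 ± 0.287 and Zfas1 at 9.51 ± 0.336. Snhg6 followed at 8.12 ± 0.175, Snhg3 at 4.30 ± 0.278 overlapped Snhg1 at 4.04 ± 0.335, and Snhg5 at 2.78 ± 0.205 and Snhg12 at 1.92 ± 0.0477 came last. With the length of the longest annotated transcript instead, Gas5 stayed first in PBS and Snhg15, at 28.3 ± 2.21, came before Snhg8, at 17.7 ± 0.336, in LPS. The places of the hosts in each order thus depend in part on which length is used. Snhg15 and Zfas1 have a later version suffix in the count table than in GENCODE M21, so their counted gene models may differ from the lengths used here.

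The snoRNA genes inside the hosts could mostly not be read from this table. Of 33 such genes, counted as annotated entries and 60 to 205 bases long, 29 were listed at 0 in all 6 libraries. The annotation places 30 of the 33 wholly inside exons of the host, as in forms that retain the intron, and 29 of these were the genes at 0, while the 3 others all had counts. How reads that fall in 2 genes were counted is not given in the sources used here, so a 0 gives no upper limit on the snoRNA itself.

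The snoRNA gene with the most counts was Snora73b of Snhg3 (chr4:132352322-132352526, - strand), which lies wholly outside the host's annotated exons. It is shown because it had counts of its own outside those exons, with the ACA box in capitals.
Snora73b: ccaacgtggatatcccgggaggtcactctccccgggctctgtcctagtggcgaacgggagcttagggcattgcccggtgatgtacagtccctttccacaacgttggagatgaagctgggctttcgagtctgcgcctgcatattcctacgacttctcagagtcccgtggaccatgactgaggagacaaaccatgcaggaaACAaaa
Snora73b had 1465, 2222 and 2422 counts in PBS and 2293, 2468 and 1772 in LPS, and the groups overlapped even after scaling, at 44.1 ± 11.7 and 65.3 ± 12.1 CPM. Its log2 fold change was 0.57 (SE 0.142, adjusted p = 0.00183 in edgeR), which passed the test, with 2 of 3 same-numbered pairs higher in LPS and the third at -0.01. PBS replicate 1 was the lowest library, and without it the log2 fold change was 0.36 (adjusted p = 0.00408 in edgeR). Scaled by library size alone it was 0.16 (adjusted p = 0.311 in edgeR), where it did not pass. Per 1000 bases it stood at 215 ± 57.1 CPM in PBS, against 6.46 ± 0.384 for Snhg3. Reads of the mature snoRNA and of the unspliced intron cannot be told apart, and Snora73a is identical to it at 198 of 205 bases (96.6%), so reads shared by the pair are uncertain. Snora73a itself held 2 to 7 counts per library.

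Gm23201, a C/D gene inside Zfas1 (chr2:167064998-167065086, + strand), had 43, 53 and 41 counts in PBS and 27, 25 and 27 in LPS. Its log2 fold change was -0.32 (SE 0.215, adjusted p = 0.194 in edgeR), which did not pass. Gm23201 lies wholly inside annotated exons of Zfas1 and was the only such gene with counts. Its counts are uncertain, since reads of the host can fall in the same bases. Snord87 of Snhg6 held 3 to 14 counts per library and was not tested.

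3 hosts have a divergent neighbour, a gene on the opposite strand that starts within 1000 bases. Snhg1 starts 106 bases from Slc3a2, the heavy chain of the CD98 amino acid transporter. Slc3a2 had 4491, 4709 and 4773 counts in PBS and 8245, 8142 and 8203 in LPS, all LPS libraries above all PBS libraries, with a log2 fold change of 1.29 (SE 0.039, adjusted p = 2.32e-15 in edgeR). The ratio of Snhg1 to Slc3a2 counts went from 0.117 to 0.122 in PBS down to 0.0463 to 0.0527 in LPS, a log2 difference of -1.30. Slc3a2 thus rose where Snhg1 did not pass the test.

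Gas5 and Zbtb37, a zinc finger gene, overlap head to head with starts 427 bases apart and share no exonic base. Zbtb37 had 1288, 1203 and 1266 counts in PBS and 418, 394 and 415 in LPS, and it fell further than Gas5, with a log2 fold change of -1.14 (SE 0.054, adjusted p = 1.80e-12 in edgeR). The ratio of Gas5 to Zbtb37 counts was 1.91 to 2.03 in PBS and 3.38 to 3.67 in LPS. The log2 difference of that ratio was 0.85.

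Zfas1 and Znfx1, an NFX1-type zinc finger gene, start 81 bases apart and share 82 exonic bases on opposite strands. Znfx1 went from 584 ± 25.9 to 452 ± 8.76 CPM (n = 3 each), a log2 fold change of -0.37 (SE 0.037, adjusted p = 7.70e-08 in edgeR). There were 0.0689 to 0.0710 Zfas1 counts per Znfx1 count in PBS and 0.0586 to 0.0641 in LPS, a log2 difference of -0.18. The library kit keeps the strand, but the strand setting of the counting is not given in the sources used here, so reads of Zfas1 and Znfx1 in the shared bases cannot be told apart. Zfas1 also shares 189 exonic bases on its own strand with Gm27494, which had 0 counts in every library, and Snhg6 shares 127 with Mcmdc2 on the opposite strand. The 3 ratios of host to neighbour did not overlap between groups, each with an exact two-sided permutation p of 0.1, the smallest possible. A share of such ratios over other gene pairs was not computed. All 3 neighbours passed the test, 1 upwards and 2 downwards, where 32.9% of all tested genes rose and 34.9% fell.

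Other genes of the same biology were read from 6 lists in the same fit, where the counts at an adjusted p under 0.05 stand against 32.9% of all tested genes that rose and 34.9% that fell. Of 9 other genes named Snhg or Dancr, taken as hosts by name alone, 5 were tested, 3 fell and none rose, with a median log2 fold change of -0.48. Snhg11 is annotated as protein-coding, and Snhg7os and Snhg9, which were not tested, as antisense. Snhg20 went from 7.85 ± 0.196 to 2.89 ± 0.0911 CPM (log2 fold change -1.44, SE 0.095, adjusted p = 2.50e-10 in edgeR) and Snhg10, at 55 to 74 counts in PBS and 12 to 19 in LPS, fell by 1.53 on the log2 scale, both past both criteria. Snhg17 fell by 0.48, and Snhg11 at -0.26 did not pass. Snhg10 and Snhg20 thus fell by more than any of the 9 hosts described above.

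Of 26 protein-coding snoRNA hosts of translation and the ribosome, 20 rose, against 32.9% of all tested genes, 3 fell and 3 did not pass, with a median log2 fold change of 0.21. Hspa8, a constitutive chaperone, rose by 0.58 and Eif4g2, a translation initiation factor, by 0.55 on the log2 scale. Eif4a2, an RNA helicase of initiation, fell by 0.53, and Dkc1, the pseudouridine synthase of H/ACA particles, fell by 0.49. The median rise was smaller than the shift between scalings, and under scaling by library size alone 20 of the 26 fell and 2 rose.

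Among 8 core proteins of the snoRNA particles, 4 rose and 2 fell, so that most passed, as did most tested genes, and the median was 0.22. Nop58, a C/D core protein, went from 19.4 ± 0.515 to 34.6 ± 3.16 CPM, a log2 fold change of 0.84 (SE 0.061, adjusted p = 8.62e-10 in edgeR). Nhp2, of the H/ACA particle, rose by 0.45 and Fbl, the methyltransferase of the C/D particle, by 0.31 on the log2 scale. Scaled by library size alone, Nhp2 was at 0.04 and Fbl at -0.09 and neither passed (adjusted p = 0.468 and 0.337 in edgeR). Fbl did not pass under upper quartile either (0.17, adjusted p = 0.0839 in edgeR) and was at 0.20 without PBS replicate 1. Dkc1 belongs to this list too. Of 9 assembly factors, 2 rose and 4 fell, with a median of -0.16, and the named ones were Rpap3 (log2 fold change -0.47), Znhit3 (-0.41), Znhit6 (-0.32) and Nufip1 (0.28).

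Of 15 NMD factors, 4 rose and 4 fell, both under those shares of all tested genes, with a median of -0.01. Upf2, a core NMD factor, went from 34.1 ± 0.925 to 19.0 ± 0.573 CPM (log2 fold change -0.85, SE 0.049, adjusted p = 4.04e-11 in edgeR). Smg5, which acts in dephosphorylation of UPF1, fell by 0.82 and Upf3b by 0.51, while Magohb, an exon junction protein, rose by 1.07. Magohb was past both criteria here but at 0.98 without PBS replicate 2, 0.93 under upper quartile and 0.67 under library size alone. Of 9 genes that act on mRNAs with a 5′ pyrimidine tract, 3 rose and 3 fell, with a median of 0.07. Tia1 fell by 1.14 past both criteria and Eif4ebp1 by 0.45, while Pabpc1 rose by 0.85 and Larp1, which binds the tract, by 0.49 on the log2 scale.

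**Figure D4:**
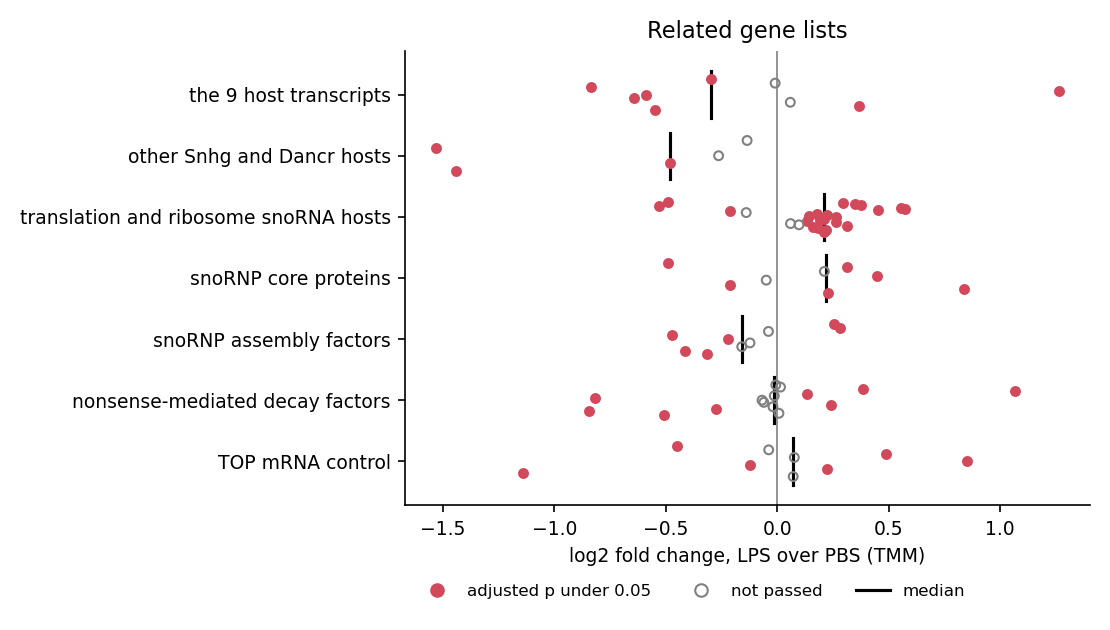
Log2 fold change, LPS over PBS (TMM), of the 9 host transcripts and of the tested genes of 6 related lists, with filled red points for an adjusted p under 0.05 in edgeR, open points for genes that did not pass and a black line at each median. The median of the 9 hosts is -0.30, that of the other Snhg and Dancr hosts is -0.48 and that of the protein-coding hosts is 0.21.

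The 5 tested genes whose 6 log2 CPM values, centred on their own mean, lay nearest to the average pattern of the 9 hosts were Fech, Ankra2, Dgkz, Lat2 and Ube2r2. Their root mean square difference from it over the 6 libraries was 0.0144 to 0.0194. That average pattern is nearly flat, since hosts that rose and hosts that fell enter it together, and Fech, the ferrochelatase of haem synthesis, went from 39.7 ± 0.347 to 35.8 ± 0.788 CPM.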

How the data were processed

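Total RNA of 6 BMDM cultures, 3 given PBS and 3 given LPS for 1 h, was sequenced as paired reads of 101 bp from TruSeq Stranded Total RNA libraries made with globin depletion from 500 ng. Per the submitters' processing notes, FastQC 0.11.9, HISAT2 2.1.0, SAMtools 1.17 and featureCounts 2.0.0 were used on GRCm38. The authors deposited raw counts per gene without normalization. Gene annotation release, strand setting and treatment of shared reads are not given in the sources used here. Of 55335 identifiers, 55154 matched GENCODE M21 without the version suffix.

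From the counts, genes passing filterByExpr (15687) were scaled by TMM and tested with edgeR 4.0.16 in R 4.3.3 (quasi-likelihood test, Benjamini-Hochberg adjustment over all tested genes, group as the only term). SEs came from the F statistic. The alternatives were DESeq2 1.42.0, limma 3.58.1 voom, other scalings and filters, a test against a log2 fold change of 1, a replicate block and leaving out each library. The fit was tested on simulated data, where 200 of 200 genes set to a log2 fold change of 2, up or down, were recovered past both criteria. There was 1 false call past both criteria among 15227 tested. No smaller change and no shift in RNA composition were simulated, so this does not speak to calls at an adjusted p alone or to the choice of scaling.

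The labels give the numbers 1, 2 and 3 as batches in both groups, so they pair the libraries by label, but what a batch was is not stated. Deviations from group means of same-numbered libraries correlated across genes at -0.0139, 0.0822 and 0.0387. Those of differently numbered libraries correlated at -0.0817 to 0.0446. A count of 3, the floor, is 0.063 to 0.0919 CPM, a limit that speaks of counting error alone, as reads had no molecular identifiers. The members and lists were chosen with earlier results of these data known. Named were all members, hosted snoRNA genes averaging 10 counts or more, divergent neighbours, up to 4 genes per list with the largest absolute log2 fold change, and the 5 genes nearest in pattern. Rcc1, Gm17300, Gm27494, Mcmdc2, Snora73a and Snord87 were named outside that rule. Promoters, matched by symbol for 8 of 9 members, and the motif searches used RefSeq sequences of GRCm38.p6, and snoRNA sequences were read from GRCm38. One marker list is not reported here.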

Additional observations from a re-analysis of the deposited data

How the results depend on the processing

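Relative to TMM, scaling by library size alone shifted the median log2 fold change of all tested genes by -0.40 and by upper quartile by -0.14, and most changes below follow from these shifts. Under library size alone 2 hosts fell and 0 rose past both criteria, 1 rose at an adjusted p under 0.05, and values turned for Snhg6 (-0.345), Snhg8 (-0.037), Fbl (-0.091) and Nufip1 (-0.121). Among hosted snoRNA genes 1 fell and 0 rose. In the lists, 5 other Snhg and Dancr hosts fell, 20 protein-coding hosts fell and 2 rose, 4 core proteins fell and 1 rose, 8 assembly factors fell and 0 rose, 13 NMD factors fell and 1 rose, and 7 genes of tract control fell. Under upper quartile Snhg6 was at -0.084, 5 protein-coding hosts fell and 9 rose, 2 core proteins rose, 7 assembly factors fell and 1 rose, and 10 NMD factors fell and 2 rose. Without the filter 1 assembly factor rose.

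Snhg1 was at 0.010 with DESeq2 size factors and 0.010 in DESeq2. It was at -0.151 under upper quartile and -0.413 under library size alone (adjusted p = 0.0762 and 5.5e-05 in edgeR). Leaving out each library in turn gave Snhg1 -0.078 to 0.026 (0.002 without PBS replicate 2, 0.011 without PBS replicate 3, 0.026 without LPS replicate 1, 0.019 without LPS replicate 3), and assembly factors that rose 1 to 2, with 1 without PBS replicate 1 or LPS replicate 3. Znhit6 lost its call without PBS replicate 3, LPS replicate 2 or LPS replicate 3 and in DESeq2 (log2 fold change -0.22 to -0.31). With the replicate block, 5 hosts fell and 2 rose at an adjusted p under 0.05, and the block changed no call among the genes named here. The 9 hosts kept their direction and side of the threshold under all other alternatives run. The hosts held 134 to 2618 counts per library.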
